A study of Homo sapiens with 9 samples.

Results

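Interferon-stimulated genes are the genes that a cell switches on when it senses an interferon or foreign nucleic acid. A list of 40 of them was followed by RNA sequencing in HKC-8, a long-established line of epithelial cells of the human proximal tubule. Each gene was found by its symbol in a deposited table of 20323 genes, and where a symbol stood on several rows (IFITM1) the row with the largest summed count was taken. All 40 were found, and 37 passed the filter on low counts and were tested among 13153 genes.

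The 9 libraries form 3 groups of 3. The Wnt1_KP6 group was given a plasmid that encodes Wnt1, a secreted ligand, together with KP6, a peptide derived from the kidney protein Klotho. The Wnt1 group received the same plasmid without the peptide, and the control group received the empty vector pcDNA3. All 9 libraries therefore come from HKC-8 cells given a plasmid, and no dose or sampling time is stated in the labels. Whether the replicates are separate cultures is not stated. If they are not, the p-values below reflect technical spread alone.

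Each library held 21199078 to 27507623 expected counts (estimated read counts per gene). WNT1 itself had 1, 2 and 0 counts in the libraries labelled Wnt1_KP6 and 0 in each library labelled Wnt1 or control, so it gives no check of the labels. Whether transcripts of the plasmid would be counted under this gene was not tested, and every direction given here is between libraries by their labels. Of 12 proximal tubule markers, PAX8, GGT1 and MME were at 59.3 CPM or above in every library (CPM, counts scaled to library size), while LRP2, SLC34A1, AQP1 and HNF4A were at or below 0.205 CPM and SLC22A6 at 0. The leukocyte markers PTPRC, CD3E, MS4A1 and NKG7 had 0 counts in all 9 libraries, and CD68 made up nearly all of that list's sum of 24.9 to 50.9 CPM (Wnt1_KP6), 27.3 to 52.6 CPM (Wnt1) and 39.1 to 51.2 CPM (control). In the same order of groups, 6 epithelial markers summed to 1002 to 1079, 945 to 995 and 849 to 1420 CPM. The sums of 8 fibroblast and endothelial markers were 18.2 to 21.7, 15.6 to 19.8 and 21.6 to 32.4 CPM, and 0 of the 8 lacked counts in all libraries.

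Replicate 1 stood apart from replicates 2 and 3 in every group. A chi-square statistic of the counts over genes, divided by its degrees of freedom, was 3.34 between replicates 2 and 3 of Wnt1_KP6, 3.11 between those of Wnt1 and 13.6 between those of control. It was 3.52 between replicate 1 of Wnt1_KP6 and replicate 1 of Wnt1, 2 libraries with different labels, and at least 39.4 for any other pair. Each comparison is therefore given with all 9 libraries, with the replicate number as a block, and in replicates 2 and 3 alone. Mitochondrial transcripts took 5.18% to 5.72% of counts in the replicate 1 libraries and 7.01% to 7.97% in the other 6, and their part in the results was not tested.

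Type I and type III interferons bind surface receptors that signal through Janus kinases. The signal assembles a transcription factor complex that contains STAT2 and IRF9 and binds the interferon-stimulated response element, a promoter motif built of repeated GAAA. The genes it switches on encode sensors of viral RNA, enzymes that degrade or bind it, the ubiquitin-like modifier ISG15 and proteins that stop virus entry or release. Tubular epithelial cells make this response too, during infection and in kidney injury.

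Upstream sequence was read from RefSeq promoters (build GRCh38.p14), which cover 33 of the 40 genes with 44 promoters. The core of the response element was searched as GAAANNGAAA and as its reverse complement TTTCNNTTTC in the 250 bases before each start. It was present for 23 of the 33 genes (69.7%) and for 1014 of 27305 genes in all (3.71%). The core of the gamma-activated site, TTCNNNGAA, which reads alike on both strands and can overlap the first motif, was present for 9 of the 33 genes (27.3%) and for 8.09% of all genes. OASL, IFITM2, TRIM22, OAS2, IFIT2, DHX58 and USP18 had no entry.

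The following stretches belong to genes that passed the test for a difference from control, with or without the replicate block, and that hold the first motif. They are shown because they carry the element through which this gene group is classically switched on. Each reads 5′ to 3′ on the gene's strand, and capitals mark the motif on either strand, merged where matches overlap. The MX1 stretch lies before the third RefSeq start and the RSAD2 stretch before the second, and the MX1 and IFIH1 stretches lie within annotated exons.
MX1, chr21:41431844-41431873, plus strand: ggtcactctgTTTCTCTTTCcgtgaataaa
IFI6, chr1:27672289-27672408, minus strand: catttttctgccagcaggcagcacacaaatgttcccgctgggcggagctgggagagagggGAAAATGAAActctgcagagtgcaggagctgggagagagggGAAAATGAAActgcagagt
IFIH1, chr2:162318821-162318850, minus strand: aattcgcTTTCCTTTTCTGTTTCccgcggt
ISG15, chr1:1013324-1013422, plus strand: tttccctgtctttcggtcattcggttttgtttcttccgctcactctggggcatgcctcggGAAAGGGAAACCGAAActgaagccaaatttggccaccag
IFIT1, chr10:89392447-89392545, plus strand: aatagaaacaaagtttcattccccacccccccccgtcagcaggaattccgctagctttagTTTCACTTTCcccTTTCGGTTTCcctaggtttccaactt
IFIT3, chr10:89327781-89327893, plus strand: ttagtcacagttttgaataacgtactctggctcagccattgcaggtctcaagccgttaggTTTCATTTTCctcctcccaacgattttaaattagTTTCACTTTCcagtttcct
IFI44, chr1:78649711-78649788, plus strand: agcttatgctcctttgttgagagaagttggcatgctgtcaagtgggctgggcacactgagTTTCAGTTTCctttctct
RSAD2, chr2:6877572-6877664, plus strand: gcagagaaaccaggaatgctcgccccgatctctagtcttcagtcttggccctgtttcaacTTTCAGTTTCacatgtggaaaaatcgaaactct
DDX60, chr4:168318808-168318900, minus strand: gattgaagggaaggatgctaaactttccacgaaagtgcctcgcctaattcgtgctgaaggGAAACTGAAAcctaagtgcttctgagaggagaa
HERC5, chr4:88456934-88457044, plus strand: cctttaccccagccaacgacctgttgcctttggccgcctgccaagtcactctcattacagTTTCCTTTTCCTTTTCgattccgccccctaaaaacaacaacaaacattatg

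A match is a description of the letters, and binding was not measured. The 22 genes tested with a match had a median log2 fold change of 1.13 in libraries labelled Wnt1 against control (0.07 to 2.55). The 9 tested without a match had a median of 0.35 (0.09 to 2.48), with the highest value at CMPK2. Tested genes without a promoter entry, such as OAS2 and OASL, are in neither group, and the difference between the groups was not tested. OAS1 and HERC6 passed the test with the block and hold no match in this window. Of its 250 bases, 185 for OAS1 and 113 for HERC6 lie in annotated exons, and sequence further upstream was not searched. Windows with a match can hold exon bases too, such as that of BST2 with 195.

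**Figure D1:**
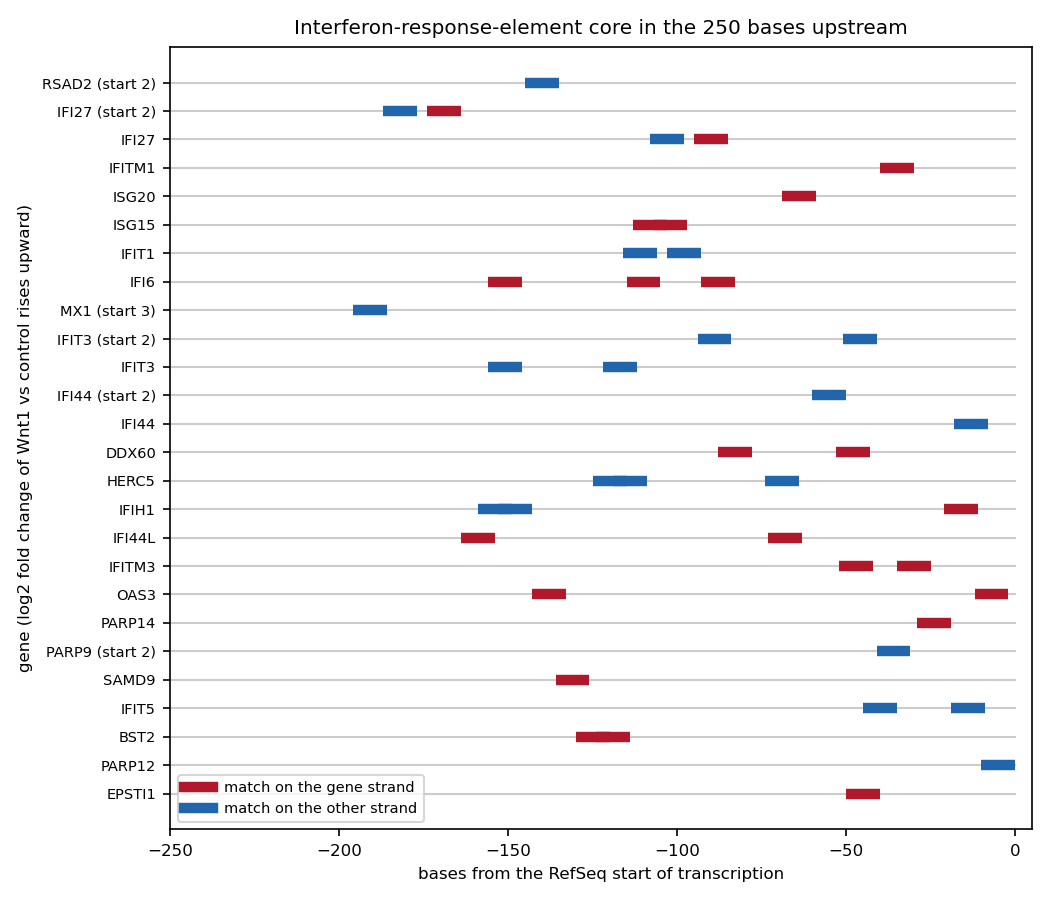
Position of each match to the response-element core (x axis, bases from the RefSeq start of transcription) for the genes that hold one, ordered upward by log2 fold change between libraries labelled Wnt1 and control (EPSTI1, not tested, at the bottom). Red bars are matches on the gene's strand and blue bars on the other strand, and 23 of 33 genes with a promoter entry appear.

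The 40 genes differed widely in level in control cells. On the deposited FPKM scale, which corrects for gene length, BST2 was highest at 106 FPKM and stood at or above 97.0% of the genes in the table. IFITM3 followed at 50.5 FPKM, ISG15 at 37.3 FPKM and PARP12 at 31.6 FPKM. The middle of the order held IFIH1 at 8.19 FPKM, HERC6 at 7.90 FPKM and OASL at 7.60 FPKM. The lowest were CMPK2 at 0.0407 FPKM, XAF1 at 0.0217 FPKM and EPSTI1 at 0.004 FPKM. On the CPM scale their control means were 0.125, 0.0743 and 0.0123 CPM. The limit that a count of 0 allows is 3 counts, or 0.109 to 0.142 CPM in a library. Summed over the 40 genes, replicates 1, 2 and 3 gave 2860, 1549 and 1534 CPM in the libraries labelled Wnt1_KP6. The same sums were 2854, 1822 and 1860 CPM in those labelled Wnt1 and 1727, 1212 and 1164 CPM in those labelled control. In bulk RNA, fewer responding cells and less RNA per cell cannot be told apart.

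**Figure D2:**
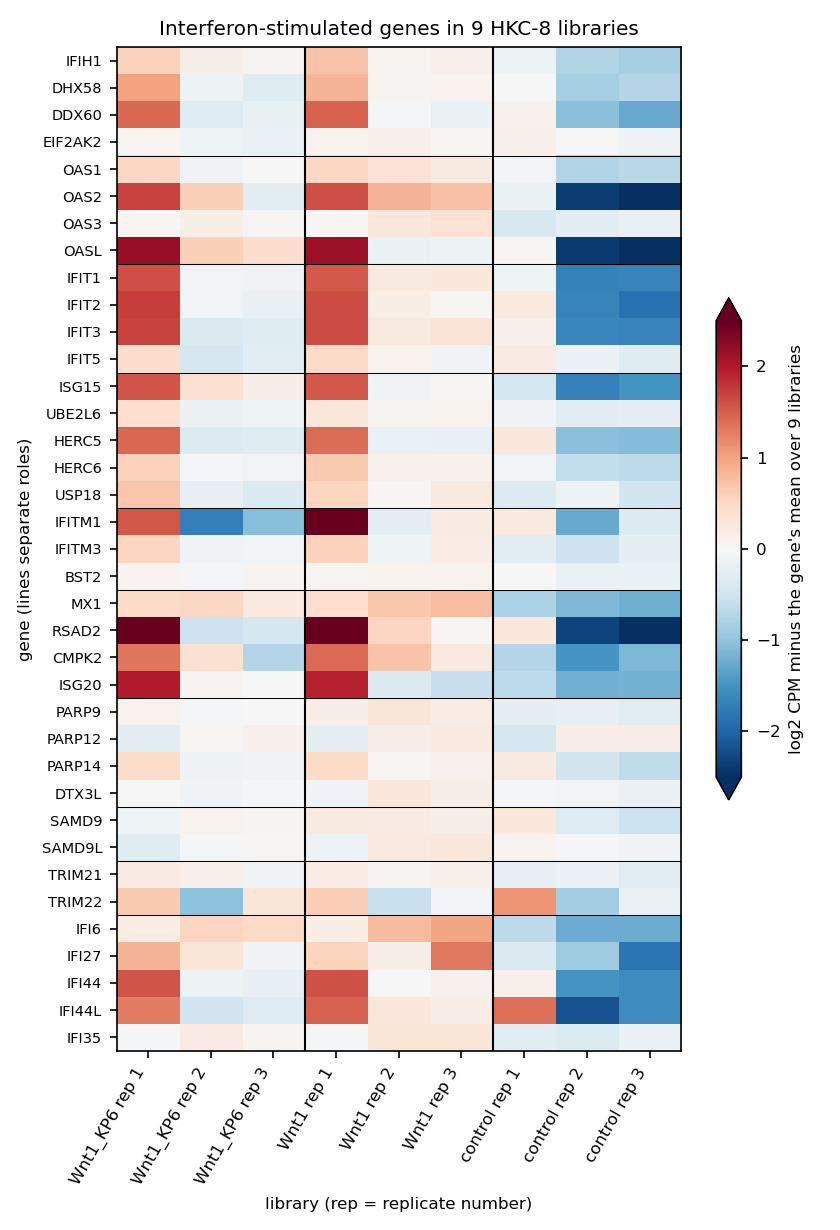
Level of the 37 tested genes (rows, grouped by role) in 9 libraries (columns), as log2 CPM minus the gene's mean over the libraries. Red is above and blue below that mean. Replicates 2 and 3 of control are the bluest columns, with medians of -0.84 and -0.70, and the replicate 1 columns of Wnt1_KP6 and Wnt1 are the reddest, with medians of 0.58 and 0.57.

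The first comparison asks what the Wnt1 plasmid did in cells that had no peptide. Libraries labelled Wnt1 had higher levels than libraries labelled control for 36 of the 37 genes by fold change, against 49.4% of all genes tested. The median log2 fold change was 0.85, against -0.0034 over all genes, and it was 0.84, 0.85 and 0.78 between the libraries numbered 1, 2 and 3. MX1 and IFI6 were the 2 genes called (adjusted p under 0.05 in the quasi-likelihood test of edgeR, Benjamini-Hochberg over all genes), against 0.114% of genes called higher, and 0 were called lower, against 0.0076%. At an unadjusted p under 0.05, 18 genes were higher and 0 lower, where 6.01% and 5.21% of all genes were. With the replicate number as a block, 16 genes were called higher, against 0.631% of genes, and in replicates 2 and 3 alone 29 of 35, against 16.3%. The groups' libraries did not overlap for 21 genes, all higher, where 7.34% of all genes were higher and 9.12% lower without overlap, and 32 genes were higher in all 3 same-numbered pairs, against 18.5%. DESeq2 called 7 genes higher (MX1, IFI6, OAS1, OAS2, OAS3, IFIH1 and PARP9), against 1.48%.

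The 2 called genes rested on several libraries. When control replicate 2 was left out 0 genes were called (MX1 adjusted p = 0.110), as when control replicate 3 (0.0644) or Wnt1 replicate 3 (0.0590) was. Without control replicate 1, 8 were called, all higher, against 3.9% of all genes in that fit. The share of all genes called was not taken for the other left-out libraries. IFI6 was not called in 6 of the 9 fits that leave out 1 library: its adjusted p was 0.325 without control replicate 2, 0.185 without control replicate 3, 0.269 without Wnt1 replicate 2 and 0.314 without Wnt1 replicate 3. It was 0.0972 and 0.133 without Wnt1_KP6 replicates 2 and 3. In these fits a group of 2 libraries shares its spread with the others.

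**Figure D3:**
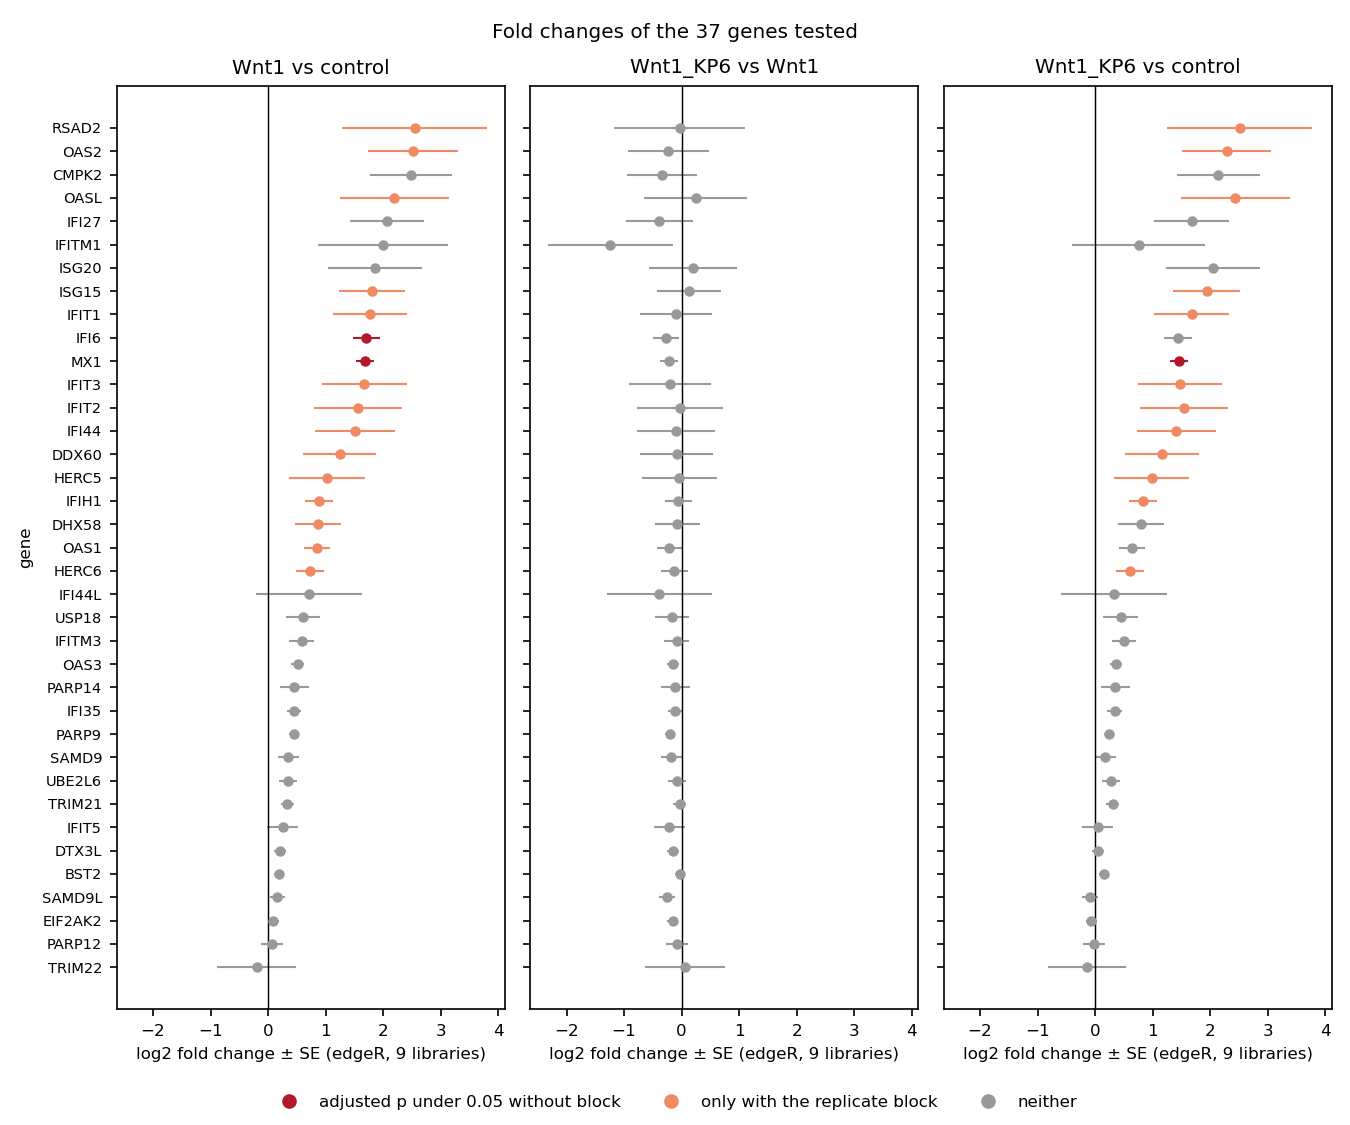
Log2 fold change (x axis) with its standard error for the 37 tested genes in the 3 comparisons. Red marks an adjusted p under 0.05 without the block, orange only with the replicate block, grey neither. In Wnt1 vs control 36 points lie right of 0, while in Wnt1_KP6 vs Wnt1 the points lie between -1.24 and 0.24 and are all grey.

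Among the GTPase and nucleotide effectors, MX1 (ENSG00000157601, chr21:41420304-41459214 on GRCh38 by GENCODE 29), a GTPase that blocks the replication of RNA viruses, gave the firmest difference. Replicates 1, 2 and 3 had 17.0, 16.3 and 13.4 CPM in the libraries labelled Wnt1_KP6, 16.5, 19.4 and 20.5 CPM in those labelled Wnt1, and 7.22, 5.61 and 5.15 CPM in those labelled control. All 6 libraries with the Wnt1 plasmid lay above all 3 controls. MX1 rose in libraries labelled Wnt1 by a log2 fold change of 1.68 ± 0.16 (SE, adjusted p = 0.00801), with group means of 18.8 ± 2.04 CPM against 6.0 ± 1.09 CPM (SD, n = 3). RSAD2 (viperin, which makes a chain-terminating nucleotide) had 14.3, 1.27 and 1.33 CPM in Wnt1_KP6, 12.6, 2.88 and 2.00 CPM in Wnt1, and 2.51, 0.337 and 0.194 CPM in control. Replicate 1 of control lay within the range of the libraries labelled Wnt1. The fold change was 2.55 ± 1.26 without the block (adjusted p = 0.496) and passed with it (adjusted p = 0.0127). CMPK2, a nucleotide kinase that lies head to head with RSAD2 on chromosome 2, had 25, 11 and 4.48 counts in Wnt1_KP6, 30, 13 and 10 in Wnt1, and 5, 2 and 3 in control. Its fold change of 2.48 ± 0.71 did not pass (adjusted p = 0.247, and 0.0764 with the block), although all Wnt1 libraries lay above all controls. The exonuclease ISG20 was at 1.86 ± 0.81 (adjusted p = 0.444), with a difference of 2.58 in replicate 1 and a mean of 0.72 in replicates 2 and 3.

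IFI6 (ENSG00000126709, chr1:27666061-27672218), a membrane protein with antiviral and anti-apoptotic effects, was the other called gene. It had 22.96, 26.98 and 26.1 CPM in the libraries labelled Wnt1_KP6, 22.5, 33.7 and 38.9 CPM in those labelled Wnt1, and 13.01, 8.46 and 8.29 CPM in those labelled control. The groups did not overlap with control, and replicate 1 was the lowest of Wnt1 but the highest of control. IFI6 rose by a log2 fold change of 1.71 ± 0.24 in libraries labelled Wnt1 (adjusted p = 0.0475). Its same-numbered difference was 0.82 in replicate 1 and averaged 2.12 over the others. IFI44, a cytoplasmic interferon-induced protein, had 162, 46.2 and 44.1 CPM in Wnt1_KP6, 165, 52.8 and 57.7 CPM in Wnt1, and 61.1, 19.4 and 18.0 CPM in control. Replicate 1 was about as high in control as replicates 2 and 3 were in Wnt1. Its fold change of 1.51 ± 0.69 passed with the block (adjusted p = 0.0015) and not without it (adjusted p = 0.459). Its neighbour IFI44L differed by 0.10 in replicate 1 and by a mean of 2.10 in replicates 2 and 3, and passed neither way (0.71 ± 0.92, adjusted p = 0.844). IFI35 had 21.6, 23.6 and 21.7 CPM in Wnt1_KP6, 21.5, 26.7 and 26.7 CPM in Wnt1, and 18.7, 17.5 and 19.7 CPM in control. Wnt1 did not overlap with control, at 0.45 ± 0.13 (adjusted p = 0.240). IFI27, at 0.149 ± 0.11 CPM in control, was at 2.07 ± 0.64 (adjusted p = 0.286).

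All 4 oligoadenylate synthetase genes had a fold change above 0 in libraries labelled Wnt1, against 49.4% of all genes. Of the 4, edgeR called 0 without the block, against 0.114% of all genes called higher, and 3 with it, against 0.631%. DESeq2 called OAS1 (adjusted p = 0.0266), OAS2 (0.0255) and OAS3 (0.00413), against 1.48% of genes. OAS1, OAS2 and OAS3 make the oligoadenylates that activate RNase L, and lie together on chromosome 12 (chr12:112906777-113011723). OAS1 had 21.6, 13.1 and 13.9 CPM in Wnt1_KP6, 21.8, 18.9 and 17.2 CPM in Wnt1, and 14.7, 8.91 and 9.14 CPM in control. Wnt1 lay above control without overlap, at 0.85 ± 0.22 (adjusted p = 0.209, and 0.0326 with the block). OAS2 was rare, with 5.70, 2.42 and 1.31 CPM in Wnt1_KP6, 5.38, 3.07 and 2.84 CPM in Wnt1, and 1.55, 0.262 and 0.194 CPM in control. Its fold change was 2.52 ± 0.78 (adjusted p = 0.286, and 0.0361 with the block). OAS3 was the most abundant of the 3 per length in control (27.9 FPKM, against 5.42 for OAS1 and 0.191 for OAS2) and had 212, 210 and 195 CPM in Wnt1_KP6, 210, 242 and 260 CPM in Wnt1, and 160, 170 and 178 CPM in control. Both groups with the Wnt1 plasmid lay above control, and the fold change of 0.51 ± 0.11 did not pass (adjusted p = 0.132, and 0.0553 with the block). OASL, which lacks synthetase activity and enhances RNA sensing, had 130, 40.1 and 36.4 CPM in Wnt1_KP6, 128, 24.9 and 26.0 CPM in Wnt1, and 30.1, 5.39 and 4.38 CPM in control. Replicate 1 of control exceeded replicates 2 and 3 of Wnt1, while each Wnt1 library exceeded the control library of its own number. The fold change of 2.2 ± 0.94 passed with the block (adjusted p = 0.00703) and not without it (adjusted p = 0.433).

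The IFIT genes, whose products bind foreign RNA and block its translation, lie in a row on chromosome 10 (chr10:89283694-89421001). Of the 4, edgeR called 3 with the block, against 0.631% of all genes, and 0 without it, against 0.114%, and DESeq2 called 0, against 1.48%. IFIT1 had 105, 30.3 and 29.9 CPM in Wnt1_KP6, 100, 38.9 and 40.5 CPM in Wnt1, and 32.6, 10.6 and 10.7 CPM in control. Every library labelled Wnt1 lay above every control, by 1.77 ± 0.65 (adjusted p = 0.363, and 0.0015 with the block). IFIT2 had 175, 46.3 and 42.8 CPM in Wnt1_KP6, 165, 57.1 and 52.7 CPM in Wnt1, and 64.1, 16.5 and 14.2 CPM in control. Its replicate 1 of control stood above replicates 2 and 3 of Wnt1 (1.57 ± 0.77, adjusted p = 0.492, and 0.00287 with the block). IFIT3 had 179, 40.1 and 41.8 CPM in Wnt1_KP6, 173, 63.3 and 68.1 CPM in Wnt1, and 62.4, 17.9 and 17.2 CPM in control. The lowest Wnt1 library was just above the highest control (1.68 ± 0.74, adjusted p = 0.446, and 0.00515 with the block). IFIT5 was at 0.26 ± 0.27 (adjusted p = 0.792).

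ISG15 (chr1:1001138-1014540), the modifier that is joined to other proteins, had 149, 60.5 and 52.6 CPM in Wnt1_KP6, 149, 46.2 and 50.8 CPM in Wnt1, and 38.2, 15.5 and 17.6 CPM in control. The groups with the Wnt1 plasmid did not overlap with control, and Wnt1 stood above control by 1.81 ± 0.58 (adjusted p = 0.299, and 0.00435 with the block). HERC5, the ligase that attaches ISG15, had 218, 58.4 and 60.2 CPM in Wnt1_KP6, 214, 70.1 and 69.0 CPM in Wnt1, and 101, 38.9 and 37.5 CPM in control. Control replicate 1 lay within the Wnt1 range (1.02 ± 0.66, adjusted p = 0.615, and 0.0112 with the block). HERC6, its neighbour and the main ISG15 ligase in mouse, had 56.2, 33.5 and 33.1 CPM in Wnt1_KP6, 59.0, 39.1 and 39.8 CPM in Wnt1, and 36.9, 24.6 and 23.3 CPM in control. Wnt1 lay above control without overlap (0.73 ± 0.24, adjusted p = 0.311, and 0.0122 with the block). The conjugating enzyme UBE2L6 was at 0.35 ± 0.16 (adjusted p = 0.454). USP18, which removes ISG15 and dampens receptor signalling, was at 0.61 ± 0.30 (adjusted p = 0.488), and 18.3% of its 75-base words also occur in USP41.

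Of the RNA sensors, IFIH1 (MDA5, the sensor of long double-stranded RNA) had 54.9, 37.8 and 35.8 CPM in Wnt1_KP6, 60.4, 38.3 and 39.2 CPM in Wnt1, and 34.4, 21.8 and 20.2 CPM in control. Both groups with the Wnt1 plasmid lay above control, and Wnt1 by 0.88 ± 0.24 (adjusted p = 0.237, and 0.00988 with the block). DHX58 (LGP2, a partner of the RNA sensors) had 31.9, 13.5 and 12.0 CPM in Wnt1_KP6, 28.9, 16.3 and 16.5 CPM in Wnt1, and 16.1, 8.87 and 9.45 CPM in control. The lowest Wnt1 library stood just above the highest control (0.87 ± 0.40, adjusted p = 0.455, and 0.0399 with the block). DDX60, a helicase-like protein, had 266, 72.2 and 79.6 CPM in Wnt1_KP6, 274, 93.1 and 84.8 CPM in Wnt1, and 108, 47.1 and 39.97 CPM in control. Control replicate 1 lay within the Wnt1 range (1.24 ± 0.64, adjusted p = 0.518, and 0.0111 with the block). EIF2AK2 (PKR, the kinase that shuts down translation on meeting double-stranded RNA) was at 0.09 ± 0.10 (adjusted p = 0.801), with 124 ± 16.0 CPM in Wnt1_KP6, 143 ± 3.87 CPM in Wnt1 and 137 ± 15.02 CPM in control.

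In the remaining roles edgeR called 0 genes, with or without the block, and DESeq2 called PARP9 in Wnt1 vs control. PARP9, which forms a complex with the ubiquitin ligase DTX3L, had 54.4, 46.3 and 47.0 CPM in Wnt1_KP6, 57.1, 61.7 and 57.6 CPM in Wnt1, and 45.0, 44.7 and 42.3 CPM in control. The 3 groups did not overlap, and Wnt1 stood above control by 0.45 ± 0.08, the smallest edgeR p among the genes it did not call (edgeR adjusted p = 0.108, and 0.0666 with the block; DESeq2 adjusted p = 0.000466). The ADP-ribosyltransferases PARP14 and PARP12 were at 0.46 ± 0.25 and 0.07 ± 0.19, and DTX3L at 0.20 ± 0.10, none called. SAMD9 and SAMD9L, paired genes that restrict viral translation, were at 0.35 ± 0.18 and 0.16 ± 0.14. TRIM21, the cytosolic antibody receptor, was at 0.34 ± 0.11, and TRIM22 was the only gene below 0, at -0.20 ± 0.68. BST2, which tethers budding virus, was at 0.18 ± 0.08, and IFITM3, which blocks virus fusion, at 0.58 ± 0.21 (adjusted p = 0.436 and 0.351). IFITM1 was at 2.00 ± 1.13 on 93.04, 8 and 13.02 counts in Wnt1 and 16.01, 4 and 9.04 counts in control, and 29.8% of its 75-base words occur in IFITM2 or IFITM3, so its split of reads is uncertain. The 3 genes left untested for low counts were IFITM2, at 0.109 ± 0.084, 0.233 ± 0.177 and 0.237 ± 0.116 CPM in Wnt1_KP6, Wnt1 and control, XAF1, at 0.137 ± 0.0615, 0.438 ± 0.131 and 0.0743 ± 0.0971 CPM, and EPSTI1, at 0.0961 ± 0.0618, 0.0835 ± 0.0741 and 0.0123 ± 0.0213 CPM.

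**Figure D4:**
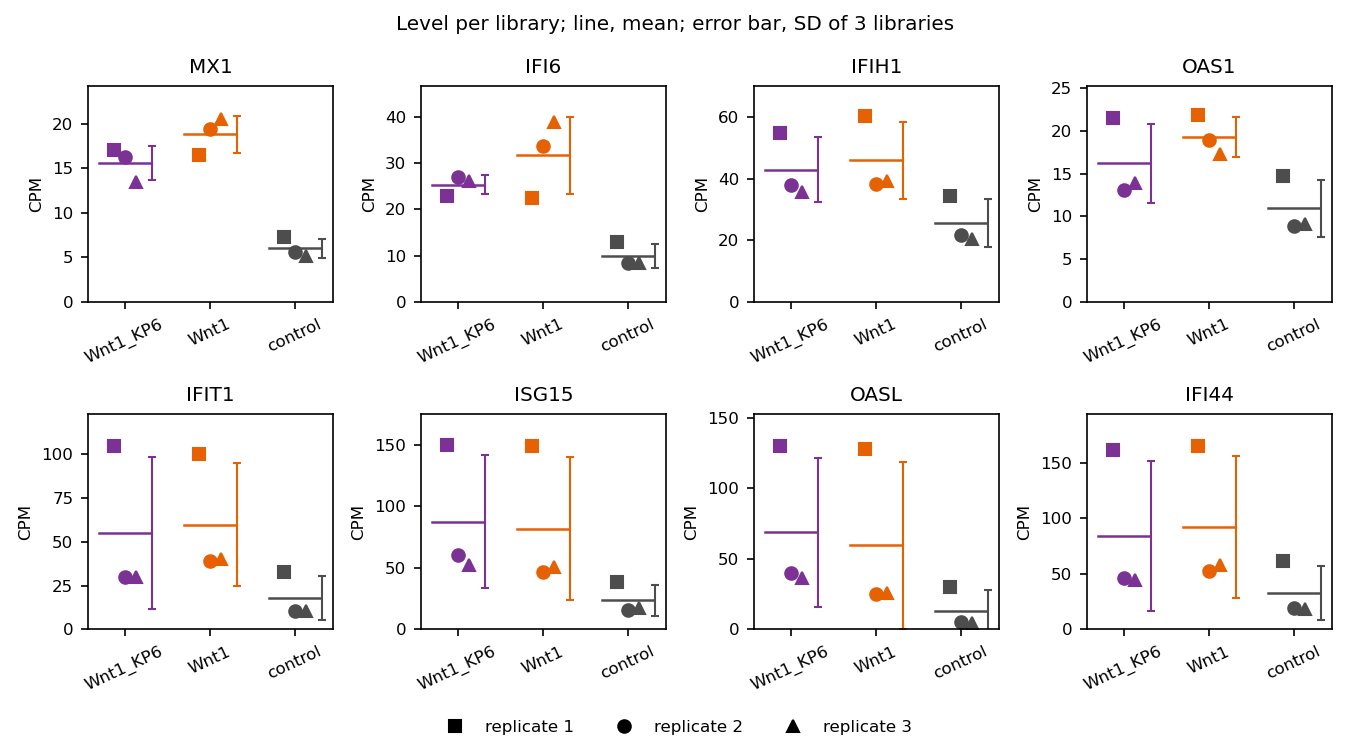
CPM of 8 interferon-stimulated genes in each library by group, with the mean (line) and SD of 3 libraries (bar, ending at 0 where it would pass below). MX1, IFI6, IFIH1 and ISG15 show 6 libraries with the Wnt1 plasmid above all controls. For IFIH1, OAS1, IFIT1, ISG15, OASL and IFI44 replicate 1 (squares) is the highest library of each group.

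The second comparison asks what KP6 did in cells with the Wnt1 plasmid. It shares the libraries labelled Wnt1 with the first, so a shift in them would move the 2 comparisons in opposite directions. Between libraries labelled Wnt1_KP6 and Wnt1 the median log2 fold change over the 37 genes was -0.11, against 0.0011 over all genes, and 4 of 37 lay above 0, against 50.3%. None of the 37 was called by edgeR, with or without the block. DESeq2 gave an adjusted p for 23 of them, not including MX1, OAS1, OAS2 or RSAD2, and called 0. Of all genes edgeR called 0%, and DESeq2 called 0.199% higher and 0.0124% lower. At an unadjusted p under 0.05, 1 gene was lower (PARP9, -0.21 ± 0.08) and 0 higher, where 0.639% and 2.12% of genes were. PARP9 and SAMD9 were the 2 tested genes without overlap between the groups, both lower, where 5.27% of all genes were lower and 1.66% higher without overlap. All 3 same-numbered pairs were higher for 3 of the 37 genes (ISG15, ISG20 and OASL), where 13.8% of all genes were. They were lower for 14 of the 37 genes, where 14.2% of all genes were.

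The peptide comparison looked different by replicate. The median difference between the replicate 1 libraries was 0.02, and it was -0.22 between replicates 2 and again between replicates 3. Over all genes the replicate 1 libraries of Wnt1_KP6 and Wnt1 were about as alike as replicates 2 and 3 of one of these groups (3.52, against 3.34 and 3.11, on the chi-square scale above). Whether these 2 libraries carry the right labels is therefore unsure, and so is what the difference of 0.02, and the comparison with replicate 1 included, measures. In replicates 2 and 3 alone, 6 of 35 genes were called lower, against 2.56% of genes, and 1 higher, against 6.06%. The lower ones were IFIT3 (-0.61 ± 0.08, adjusted p = 0.000126), IFI6 (-0.38 ± 0.10, adjusted p = 0.0235), IFIT1 (-0.32 ± 0.08, adjusted p = 0.0283), OAS3 (-0.23 ± 0.07, adjusted p = 0.0477), PARP9 (-0.28 ± 0.08, adjusted p = 0.0419) and DTX3L (-0.27 ± 0.07, adjusted p = 0.0296). OASL was higher (0.67 ± 0.10, adjusted p = 0.000412), with 40.1 and 36.4 CPM in Wnt1_KP6 against 24.9 and 26.0 CPM in Wnt1. These 7 calls rest on 2 libraries a group and were absent with replicate 1 included. The replicate 1 libraries of Wnt1_KP6 and Wnt1 also enter the comparisons with control, with and without the block. The doubt about their labels extends to those comparisons.

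The third comparison sets the plasmid with the peptide against the empty vector, and it shares its libraries with the other 2. Libraries labelled Wnt1_KP6 lay above libraries labelled control for 33 of 37 genes, against 49% of all genes, with a median log2 fold change of 0.64, against -0.0051. MX1 was the 1 gene called, against 0.19% of genes called higher, at 1.46 ± 0.16 (adjusted p = 0.0195), and 0 were called lower, against 0.038%. At an unadjusted p under 0.05, 17 genes were higher and 0 lower, where 9.1% and 6.68% of all genes were. IFI6 was at 1.44 ± 0.24 (adjusted p = 0.0570). With the block 13 genes were called, against 0.928%, and in replicates 2 and 3 alone 23 of 35, against 21.1%. The 13 were MX1, RSAD2, IFI44, IFIT1, IFIT2, IFIT3, OAS2, OASL, ISG15, HERC5, HERC6, IFIH1 and DDX60. DESeq2 called 5 genes higher (MX1, IFI6, ISG15, OAS2 and IFIH1), against 3.69%. The groups did not overlap for 12 genes, all higher, where 6.01% of all genes were higher and 11.8% lower without overlap, and 27 genes were higher in all 3 pairs, against 17.6%, while EIF2AK2 was lower in all 3, against 16.1%.

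Because control libraries are shared, sizes in the 2 comparisons with control are only set side by side. The log2 fold change of Wnt1_KP6 over control was 1.94 ± 0.58 for ISG15 (adjusted p = 0.167, and 0.00269 with the block) and 1.68 ± 0.65 for IFIT1 (adjusted p = 0.257, and 0.00269 with the block). It was 2.44 ± 0.95 for OASL (adjusted p = 0.260, and 0.00375 with the block) and 0.83 ± 0.24 for IFIH1 (adjusted p = 0.158, and 0.0107 with the block). MX1 was not called in 6 of the 9 fits that leave out 1 library: its adjusted p was 0.119 and 0.100 without Wnt1_KP6 replicates 2 and 3, 0.0575 and 0.0583 without Wnt1 replicates 2 and 3, and 0.225 and 0.0810 without control replicates 2 and 3. Without control replicate 1, 6 genes were called, all higher, against 5.38% of all genes in that fit.

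**Figure D5:**
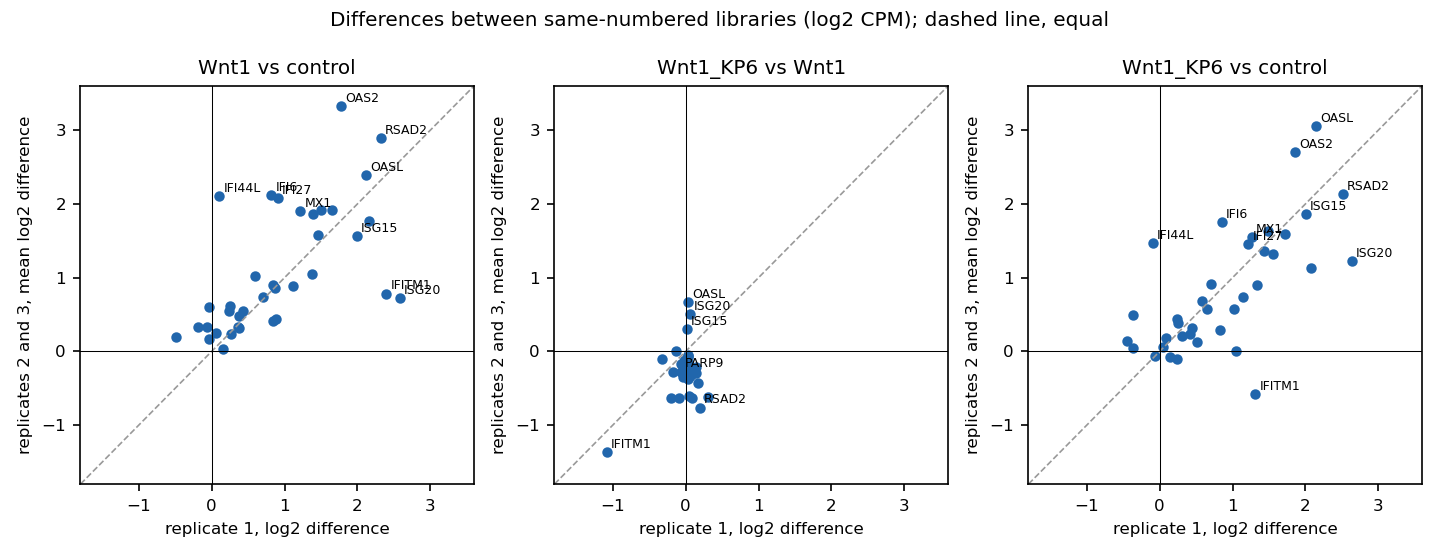
Difference in log2 CPM between same-numbered libraries for the 37 tested genes, replicate 1 on the x axis against the mean of replicates 2 and 3 on the y axis, with the dashed line marking equality. In Wnt1 vs control most points lie right of and above 0, and in Wnt1_KP6 vs Wnt1 the x values cluster at 0 with a median of 0.02.

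Replicates of one group differed widely for these genes. Replicate 1 was the highest library of its group for 32 of 37 genes in Wnt1_KP6, 26 in Wnt1 and 32 in control. Over all 13153 genes it was the highest for 57.2%, 48% and 46.8%. RSAD2 showed the largest ratio of replicate 1 to the mean of the other 2 in Wnt1_KP6 (11.0), ISG20 in Wnt1 (5.61) and IFI44L in control (10.1). IFI6 was lowest in replicate 1 of Wnt1_KP6 and of Wnt1, and PARP12 was lowest in replicate 1 of all 3 groups, with 77.0, 77.7 and 71.2 CPM in Wnt1_KP6, Wnt1 and control. The median SE of the 37 fold changes between Wnt1 and control was 0.27, between 0.08 and 1.26. The block takes out a shift shared by same-numbered libraries, and 6 of the 16 genes it called in that comparison had overlapping groups. In Wnt1_KP6 vs control 9 of the 13 genes called with the block had overlapping groups.

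The genes that start and carry the interferon response were followed as separate lists. Over all genes, DESeq2 called 1.48% higher in Wnt1 vs control and 3.69% higher in Wnt1_KP6 vs control. With the block edgeR called 0.631% and 0.928% higher, and these shares stand beside the calls in every list below. Of 22 interferon ligand genes, 21 were in the table and 18 had 0 counts in all 9 libraries, and the list's summed counts were 4 to 10 in Wnt1_KP6, 5 to 7 in Wnt1 and 5 to 8 in control. IFNB1, a type I interferon that many non-immune cells make, had 0 to 2 counts in every library. Of the 9 receptor and Janus kinase genes edgeR called 0 in each comparison, with or without the block, while DESeq2 called the receptor subunit gene IFNAR2 in Wnt1_KP6 vs control (0.40 on the log2 scale, adjusted p = 0.0385). Of the transcription factors IRF7, which amplifies the response, had 13.6, 20.2 and 19.5 CPM in Wnt1_KP6, 14.4, 20.7 and 20.9 CPM in Wnt1, and 9.58, 10.7 and 12.1 CPM in control. Its fold change over control was 0.81 ± 0.22 in Wnt1_KP6 (adjusted p = 0.144, and 0.0336 with the block) and 0.82 ± 0.22 in Wnt1 (adjusted p = 0.228, and 0.0361 with the block), and DESeq2 called it in both. IRF9 and STAT2 were at 0.60 ± 0.12 and 0.44 ± 0.10 in Wnt1 vs control, called by DESeq2 (adjusted p = 0.00300 and 0.00974) and not by edgeR (0.121 and 0.148). IRF1, the factor of the gamma-activated arm, had 46.0, 68.4 and 67.4 CPM in Wnt1_KP6, 46.0, 30.8 and 31.8 CPM in Wnt1, and 29.6, 19.8 and 23.4 CPM in control. Its fold change was 0.81 ± 0.23 between Wnt1_KP6 and Wnt1 (adjusted p = 1) and 1.41 ± 0.23 between Wnt1_KP6 and control (edgeR adjusted p = 0.0523, called by DESeq2).

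Among 16 nucleic acid sensing genes, 11 of them tested, edgeR called 0 without the block. DESeq2 called 1 in Wnt1 vs control, the DNA sensor IFI16 (adjusted p = 0.00236), against 1.48% of all genes called higher. It called 3 in Wnt1_KP6 vs control (IFI16, CGAS and TRIM25), against 3.69%. The cytosolic RNA sensor RIGI passed in edgeR with the block, at 1.01 ± 0.45 in Wnt1_KP6 and 1.00 ± 0.45 in Wnt1 over control (adjusted p = 0.0260 and 0.0315 with the block). TRIM25, which helps activate RIGI, passed with the block in Wnt1_KP6 vs control (0.59 ± 0.17, adjusted p = 0.0287). In a further list of 40 interferon-stimulated genes, 35 were tested and 32 lay above 0 in Wnt1 vs control, against 49.4% of all genes, with a median of 0.28. In that comparison edgeR called 0 and DESeq2 called 3, MX2, HELZ2 and SP110, against 1.48% of all genes called higher. Its one gene called by edgeR with the block was the antiviral zinc finger protein ZC3HAV1, at 1.37 ± 0.60 in Wnt1_KP6 and 1.33 ± 0.60 in Wnt1 over control (adjusted p = 0.0045 and 0.00515 with the block). SP110, HELZ2 and MX2 had the smallest p of that list, at 0.54 ± 0.10, 0.70 ± 0.14 and 2.73 ± 0.62 in Wnt1 vs control (edgeR adjusted p = 0.113, 0.125 and 0.152, DESeq2 adjusted p = 0.00304, 0.00226 and 0.00166). The interferon-gamma type genes (8 tested, median 0.19) and class I antigen presentation genes (17 tested, median 0.07) had 0 called by edgeR in Wnt1 vs control, where DESeq2 called WARS1 and TAP1, and WARS1, a tRNA synthetase, passed with the block in both comparisons with control (0.54 ± 0.10 and 0.50 ± 0.10, adjusted p = 0.0189 and 0.0289). In Wnt1_KP6 vs control DESeq2 called 2 class I genes higher and 1 lower, where 193 of 12613 tested genes were lower. It called 3 of the further list and 2 of the interferon-gamma type genes higher there. GBP1, a GTPase of the gamma response, was at 1.76 ± 0.52 when Wnt1_KP6 was set against Wnt1 (adjusted p = 1) and at 2.17 ± 0.53 against control (edgeR adjusted p = 0.123, DESeq2 adjusted p = 0.00873). Of the 10 negative regulators edgeR called 0 in each comparison and DESeq2 called SOCS3 in Wnt1_KP6 vs control (0.81 on the log2 scale, adjusted p = 0.00875), and SOCS3 had the smallest p in Wnt1_KP6 vs Wnt1 (0.59 ± 0.20, adjusted p = 1).

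By position, 21 of the 40 genes lie in 8 clusters with gaps under 200 kb, among them IFI44L and IFI44, the IFIT and OAS rows, RSAD2 with CMPK2, HERC6 with HERC5 and PARP9 with DTX3L and PARP14. Neighbours did not always share a size. In Wnt1 vs control the 4 IFIT genes ran from 0.26 to 1.77 and the 3 OAS genes of the chromosome 12 row from 0.51 to 2.52. Counting is not stated to use strand, and RSAD2 and CMPK2 overlap in 0.290% of RSAD2 exon bases and PARP9 and DTX3L in 2.43% of PARP9 exon bases, so these pairs share little sequence. XAF1 and IFITM3 overlap a gene on the other strand in 38.3% and 21.3% of their exon bases, and their values are uncertain.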

How the data were processed

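Poly(A)-enriched RNA of 9 HKC-8 libraries was sequenced on an Illumina NovaSeq, per the labels' protocols. The submitters' processing notes name RSEM, HISAT2, Bowtie2 (2.2.8), StringTie (1.3.1), fastp (0.18.0) and build hg38, without their roles or an annotation release. What the authors deposited is, per the file headers, an expected count and an FPKM value (scaled by them to gene length and library size) for each gene and library, and 87.6% of the expected counts were whole. Estimated counts share reads among similar genes.

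Each library was put in a group by its stated treatment, and its title gave the replicate number. Whether all libraries were handled in the same batch was not tested, and replicate 1 stood apart in every group. Expected counts were rounded and filtered with filterByExpr (minimum count 10, total 15), then tested with edgeR 4.0.16 in R 4.3.3. The fit used TMM factors, a robust quasi-likelihood test, 3 group means over 9 libraries and Benjamini-Hochberg adjustment at 0.05, and was tested on simulated data. CPM is expected counts over the library total, and differences between same-numbered libraries use log2 CPM with a prior count of 2. Deviations from group means correlated at 0.11 or more in all 9 same-numbered pairs of libraries, so the numbers taken from the titles were treated as pairing the samples, and the blocked value stands beside results it changes. Differently numbered libraries among replicates 2 and 3 also correlated, at 0.154 to 0.398, and replicate 1 with either at -0.215 or below, so the check sets replicate 1 apart and does not tell number 2 from 3. No replicate pair agreed within sampling noise.

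DESeq2 1.42.0, limma 3.58.1 on log2(FPKM + 1), other scalings, no filter and left-out libraries were alternatives. Of 20323 gene IDs, 20171 were in GENCODE 29, which gave coordinates (1-based) and exon overlaps. Limits from a count of 0 cover counting error only. The genes and lists were chosen with earlier results of these data known. By rule all 40 genes could be named, with library values for called genes, then for those called with the block, then by smallest p up to 20. Other lists were named by call or the 3 smallest p, and promoters for the first 6 genes by p. The further promoters were chosen after their values were seen.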

Additional observations from a re-analysis of the deposited data

How the results depend on the processing

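By setting, the number of the interferon-stimulated genes called in Wnt1 vs control, Wnt1_KP6 vs Wnt1 and Wnt1_KP6 vs control was 2, 0 and 1 with all 9 libraries. DESeq2 called 7, 0 and 5, the fit without a filter 2, 0 and 2, library size alone 1, 0 and 1, the 6 libraries of each comparison 1, 0 and 0, and replicates 2 and 3 alone 29, 7 and 23. With the replicate block, which pairs same-numbered libraries, 16, 0 and 13 were called. The share of all genes called higher also moved with the setting. In the 2 comparisons with control it was 0.114% and 0.19% with all 9 libraries and 0.631% and 0.928% with the block. By DESeq2 it was 1.48% and 3.69%, and in replicates 2 and 3 alone 16.3% and 21.1%. No such share was taken for the other scalings, the fit without a filter or the 6 libraries. Leaving out each library in turn gave 0 to 8, 0 and 0 to 6 interferon-stimulated genes called, with the highest counts without control replicate 1. In that fit 3.9% and 5.38% of all genes were called higher in the 2 comparisons with control. For the other left-out libraries no such share was taken, so whether the drops to 0 are particular to these genes cannot be told. The medians of the log2 fold changes, 0.85, -0.11 and 0.64, became 0.65 and 0.38 for the 2 comparisons with control on deposited FPKM, 0.79 for Wnt1 vs control in its 6 libraries and 0.76 in replicates 2 and 3. Over left-out libraries they ran from 0.53 to 1.14, from -0.43 to 0.081 and from 0.36 to 1.08, and the only median to change sign was that of Wnt1_KP6 vs Wnt1 without Wnt1 replicate 1, at 0.081. The cause was not tested. Of the values of single genes over these settings, 0 of 626, 0 of 627 and 0 of 624 reversed a call, 11, 0 and 7 lost one and 52, 7 and 46 gained one. A further 5, 60 and 20 values changed sign without being called. With 0 genes called in the main fit of Wnt1_KP6 vs Wnt1, there was no main call there to reverse. With 3 libraries a group and replicate 1 apart from the others, standard errors of up to 1.26 limit what the test without the block can call.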
